A study of Mus musculus with 9 samples.

Results

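The sites described here are 182 transposon insertion sites that lay downstream of their listed gene in medulloblastomas of Lazy Piggy mice, outside chromosomes 7, 10, 13, X and Y. They were chosen from the measured counts. An insertion position (IR site) was called in a tumour when it held at least 10 IR counts and at least 1% of the counts of that tumour's highest IR site, after positions within 10 bp were merged. A called site was then kept where the deposited table placed it 3′ of its gene. The 182 sites were 13.6% of the 1342 called IR sites on the kept chromosomes and came from 2311 called IR sites in all. The kept chromosomes also held 677 intronic, 204 upstream and 36 exonic sites and 243 sites with no listed gene. A share is throughout the percent of 1 tumour's counts of 1 kind of library, and the choice of the sites used the IR counts and the listed gene part.

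All animals carried the genotype that the labels call Lazy Piggy and had tumours of the SHH class, in which Sonic hedgehog signalling is active. The labels name no further allele, age, strain or tamoxifen dose. The mobile element joins a Sleeping Beauty (SB) part to a piggyBac (PB) part. Per the labels' protocols, IR libraries were amplified from the SB part, PB libraries from the PB part and JX libraries from their boundary, each from a left and a right end. The study asked which insertions matter to established tumours, with 72 tumours of animals listed with tamoxifen and 47 of animals listed without. Each animal gave 1 primary tumour, and the tumour was the replicate.

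An insertion screen reads out genes by where a mobile element comes to rest. An element inside a gene can truncate its transcript or drive a new one, and an element outside a gene can act on it only from a distance or on regulatory sequence. The 3′ side of a gene lies past the last exon, so an element there does not interrupt the annotated transcript. It can still lie in an enhancer, in an unannotated transcript or within reach of a neighbouring gene. The table lists 1 gene for each position, its side and its distance, and no strand. Orientation is given relative to that gene, as the same or the opposite.

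IR depth ranged from 295999 to 6337624 counts per tumour with tamoxifen (median 3115243) and from 1236372 to 5553180 without (median 3143569). Median JX depth was 441808 counts with tamoxifen and 287429 without, and median PB depth was 204963 and 216967. One tamoxifen tumour stood apart. It had the lowest IR depth, 334 called IR sites and 28 of the 182 downstream sites (15.4%). The median share of those 28 sites was 0.0902%. Results that this tumour moved by over 1.5 times are given with and without it.

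For 17 of 119 tumours, 16 of them in lane 4, the JX libraries with the highest share at the tumour's IR sites were those of another tumour. In lane 4 (16 tumours, 5 with tamoxifen and 11 without), the left-end JX library of none of the 16 tumours was the one with the highest share at that tumour's own IR sites (0 of 16). Its own left-end JX library held 0.00159% to 0.0569% of its counts there, against 2.73% to 93.3% in the left-end JX library of another lane 4 tumour. For 16 of 16 tumours that other library stood at the mirrored place of the sample sheet's list for the lane, the first against the last and so on. The right-end JX library matched its own tumour for 15 of 16, and both IR ends and both PB ends for 16 of 16. In the other lanes, compared within the lane, each JX end matched for 103 of 103 tumours. The left IR end matched for 101 of 103 and the right for 103 of 103. The left PB end matched for 97 of 97 and the right for 93 of 94. Across all lanes the PB libraries of 1 of 115 tumours did not match, and they held 0% at its IR sites. Compared across all lanes, 1 more tumour stood out in JX, a tamoxifen tumour of lane 6, where both JX ends matched within the lane for 15 of 15 tumours. Its own JX libraries held 13.9% at its IR sites, and those of a lane 1 tumour held 49.9%. At its 2 downstream sites its own JX share was the highest. No library was reassigned. The 25 downstream sites of lane 4 lay in 11 tumours, and their arms and IR values do not use the JX libraries.

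**Figure D1:**
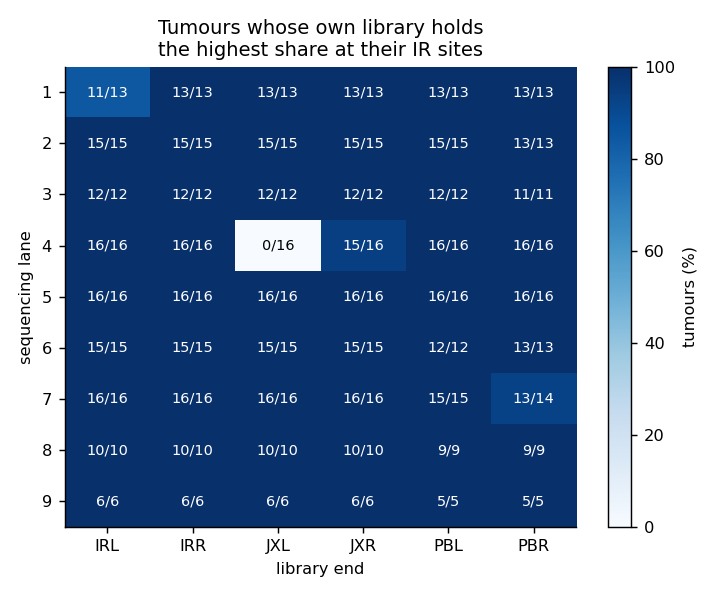
Agreement of each library with its labelled tumour, by sequencing lane (rows) and library end (columns; IR, JX or PB, left or right). Each cell gives the number of tumours whose own library held the highest share at their IR sites of at least 5% of the top site, out of the tumours of the lane that could be compared, and the colour gives the percent. Lane 4 stands at 0 of 16 for the left JX end.

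The downstream sites were spread over 66 of the 119 tumours and 175 genes. In the tamoxifen arm 42 of 72 tumours (58.3%) held 126 sites. Without tamoxifen 24 of 47 tumours (51.1%) held 56 sites. With tamoxifen 30 tumours had none, 15 had 1, 17 had 2 and 10 had 3 or more, up to 28. Without tamoxifen 23 had none, 7 had 1, 9 had 2 and 8 had 3 or more, up to 6. The arms overlapped almost entirely. The tumour with the second most sites, also with tamoxifen, had 13 of them among 130 called IR sites.

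The number of downstream sites per tumour was 1.75 ± 3.76 in the tamoxifen arm (SD, n = 72) and 1.19 ± 1.54 (SD, n = 47) without. The difference of 0.559 was within the spread between tumours (two-sided permutation test, p = 0.402, adjusted p = 0.722 over the 12 tests of this family by Benjamini-Hochberg). Without the tumour that stood apart the difference was 0.189 (permutation adjusted p = 0.770). Within lanes the mean was higher with tamoxifen in 6 of 9. As a percent of the called sites on the kept chromosomes, downstream sites made up 13.2% ± 14.2 in the tamoxifen arm (SD, n = 68) and 13.9% ± 20.7 (SD, n = 47) without (permutation p = 0.820, adjusted p = 0.820). That percent was higher with tamoxifen within 6 of 9 lanes, lower in 2 and equal in 1, and the pooled difference was lower with tamoxifen. The donor chromosome, from which the element started, was chromosome 10 in 90 tumours and chromosome 7 in 29. Downstream sites were 14.3% ± 18.7 (SD, n = 86) of called sites with donor 10 and 11.0% ± 11.2 (SD, n = 29) with donor 7 (permutation p = 0.372, adjusted p = 0.722).

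**Figure D2:**
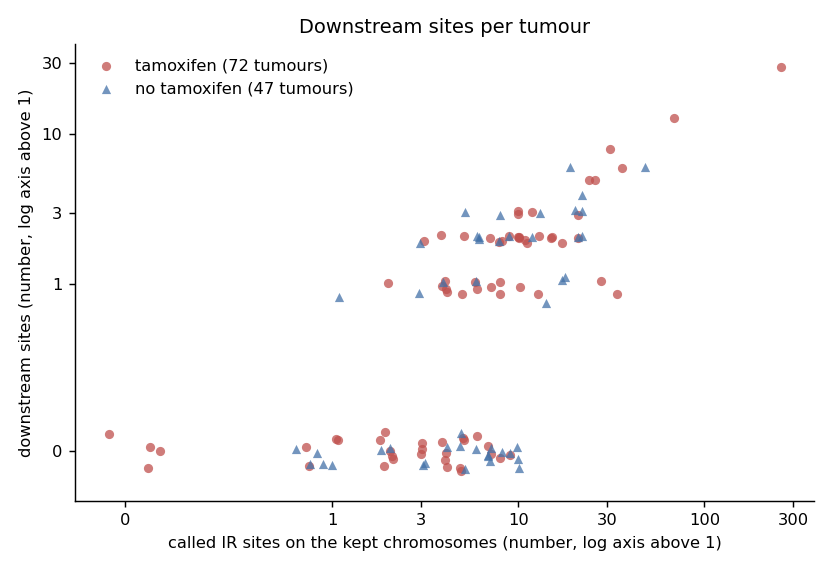
Number of downstream sites (vertical, log axis above 1) against all called IR sites on the kept chromosomes (horizontal, log axis above 1) in each of 119 tumours, with a small seeded jitter. Circles are 72 tumours with tamoxifen and triangles 47 without, and both kinds lie along 1 band that ends in the tumour with 28 downstream sites.

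Below the call threshold the table lists many more positions. Of all listed IR positions on the kept chromosomes, 15.009% were downstream, against 13.6% of called sites. The 5 control tumours had 75 downstream sites among 476 called ones (15.8%), and the 7 control DNAs had 28 of 196 (14.3%). The positions of the 182 sites held 4.69% of the IR counts of the 119 tumours, 0.0190% of those of the control tumours and 0.0344% of those of the control DNAs. The sites were chosen for high counts in the 119 tumours, so the choice itself sets this contrast.

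Listed distances ran from 0.134 to 368 kb with a median of 29.0 kb (quartiles 8.29 and 65.3 kb). Under 1 kb lay 6 sites, from 1 to 10 kb 48, from 10 to 50 kb 64, from 50 to 100 kb 50 and beyond 100 kb 14. The median of the 204 upstream sites was also 29.0 kb. Per tumour the mean log10 distance in kb was 1.38 ± 0.441 for downstream and 1.44 ± 0.452 for upstream sites (SD, n = 46 tumours with both). The difference of -0.0586 was within the spread (sign-flip permutation p = 0.543, adjusted p = 0.724). When sites down to 0.1% of the top site were called, it was -0.120 with adjusted p = 0.0263 by the same permutation test. The median was 25.7 kb with tamoxifen and 33.5 kb without. Per tumour the mean log10 distance was 1.33 ± 0.444 (SD, n = 42) and 1.49 ± 0.448 (SD, n = 24), and this difference of -0.166 did not pass either (permutation p = 0.149, adjusted p = 0.595).

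The nearest sites were all within 0.3 kb of their gene. Tia1, which encodes an RNA-binding protein of stress granules, had 2 sites in 1 tamoxifen tumour at 0.134 and 0.251 kb (chr6:86383533 and chr6:86383650, build mm9), with shares of 0.194% and 0.823%. The first was read almost only from the right end (0.135% of counts from the left) and the second from the left (99.9%), and they lay 117 bp apart. Trp63, a p53 family transcription factor of epithelial progenitors, followed at 0.165 kb with 0.909%. Tmem165, a Golgi membrane protein, lay at 0.197 kb with 0.914%. Igsf9, an immunoglobulin superfamily adhesion protein, lay at 0.293 kb with 507 counts (0.171%) in the tumour that stood apart. Cldn5, the tight junction claudin of brain endothelium, was next at 0.540 kb, with a larger share of 4.63%.

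The farthest sites belonged to Rit2, a neuronal RAS-like GTPase, at 368 kb, Pla2g4a, a cytosolic phospholipase, at 207.6 kb, and the predicted gene Gm5087 at 204.1 kb. Nup210, a nuclear pore protein, followed at 173.8 kb and Cdc73, a subunit of the PAF1 transcription elongation complex, at 173.7 kb. Among these 5, Cdc73 had 9.71% of its tumour's IR counts, Pla2g4a 0.945%, Nup210 0.349%, Rit2 0.0974% and Gm5087 0.0940%. Over all 182 sites distance and share moved little together (r = 0.057 between the logs, a description over sites that share tumours).

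**Figure D3:**
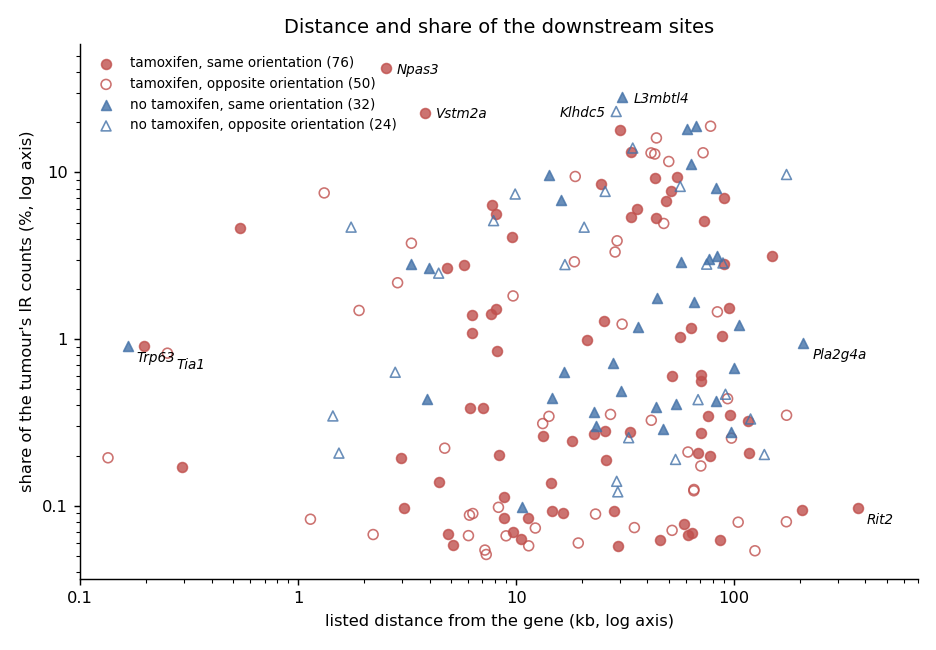
Share of the tumour's IR counts (vertical, log axis, percent) against the listed distance from the gene (horizontal, log axis, kb) for each of 182 downstream sites. Circles are sites with tamoxifen, triangles sites without, filled for the same orientation as the gene and open for the opposite. High shares occur from 2.534 kb (Npas3) to 173.728 kb (Cdc73).

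Shares ran from 0.0510% to 42.1% with a median of 0.527% (quartiles 0.177% and 3.29%). Without the tumour that stood apart the median was 1.01%. The lowest count at a site was 188. The 95% Wilson interval reached at most 14.3% of the share to either side, with a median of 1.5002%. These intervals cover counting error only, since reads of 1 PCR product are not separate molecules. At least 5% was held by 38 sites (20.9%), in 30 tumours. The like percent was 18.6% for upstream and 19.2% for intronic sites. At least 10% was held by 16 of 182 downstream, 17 of 204 upstream and 80 of 677 intronic sites. The share was used to call the sites and is given as a description.

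In 3 tumours the downstream site was the highest IR site on any chromosome. That was 3 of 182 downstream sites, against 6 of 204 upstream and 34 of 677 intronic sites. Npas3 encodes a transcription factor of the brain with bHLH and PAS domains. A site 2.534 kb past it (chr12:55175696, same orientation) held 717859 of 1705302 IR counts of a tamoxifen tumour, 42.1% (95% Wilson interval 42.0% to 42.2%). The same tumour gave it 62.0% of its JX counts and 69.2% of its PB counts, so all 3 kinds of library placed it high. L3mbtl4 encodes a chromatin-associated protein with MBT repeats. A site 30.698 kb past it (chr17:69160124, same orientation) held 28.2% of the IR counts of a tumour without tamoxifen and 58.5% of its PB counts. That tumour was sequenced in lane 4. Its own JX libraries held 0.467% at the site, and those of another lane 4 tumour without tamoxifen held 56.2%. Vstm2a encodes a secreted immunoglobulin-domain protein. A site 3.8 kb past it (chr11:16188354, same orientation) held 22.8% of IR, 36.5% of JX and 45.0% of PB counts of a tamoxifen tumour.

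The 15 sites of highest share lay in 15 tumours, 10 with tamoxifen and 5 without, between 2.534 and 77.88 kb from their genes. Klhdc5 (now Klhl42), an adaptor of a cullin ubiquitin ligase, had 23.2% at 28.738 kb in a lane 4 tumour without tamoxifen. The same tumour had a site 14.167 kb past Pthlh, parathyroid hormone-like hormone, with 9.58%. These 2 sites were 108.4 kb apart on chromosome 6. The same tumour also had 11.3% at Aimp1, a component of the multi-tRNA synthetase complex. Its 3 downstream sites summed to 44.0%, above the sum of any other tumour. Over the 66 tumours the median sum was 5.66%.

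Sox9, an HMG-box factor of neural stem and glial cells, had 18.9% at 77.88 kb in the opposite orientation (chr11:112726951), with tamoxifen. JX held 5.14% and PB 4.66% at that site. Ppm1f, a phosphatase of calmodulin-dependent kinase, had 16.1% of IR, 39.1% of JX and 39.0% of PB counts at 43.955 kb, with tamoxifen. Tiam1, an exchange factor for the GTPase Rac, had 11.6% of IR, 27.7% of JX and 33.3% of PB counts at 50.08 kb, with tamoxifen. At Ppm1f and Tiam1 the JX and PB shares were above the IR share, and at Sox9 both were below it.

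Other sites of similar IR share had few JX or PB counts. Ints7, a subunit of the Integrator complex, held 18.2% of IR counts at 60.821 kb and 0.550% of JX counts, with no PB count, in a tumour without tamoxifen. Rprm, a p53-induced cell cycle inhibitor, held 14.0% of IR, 2.73% of JX and 0.0323% of PB counts, also without tamoxifen. Crygf, a lens crystallin, held 13.1% of IR, 1.69% of JX and 0.0554% of PB counts with tamoxifen. Zfp202, a zinc finger protein, held 17.996% of IR, 21.8% of JX and 0.148% of PB counts with tamoxifen. Mat2b, the regulatory subunit of methionine adenosyltransferase, ran the other way, with 13.1% of IR, 2.48% of JX and 30.8% of PB counts with tamoxifen. The non-coding gene B930092H01Rik held 18.9% of IR, 2.42% of JX and 2.67% of PB counts without tamoxifen. The shares of the 3 kinds of library thus differed in order from site to site. Some low values held for a whole library and not the site alone. Over all its IR sites of at least 5% of the top site, the Ints7 tumour had 1.84% of its JX counts. No PB library of any tumour held a count within 100 bp of those sites, so the missing PB count was not particular to Ints7. The Zfp202 tumour had 4.95% of its PB counts at such sites. The Rprm and Crygf tumours had 74.7% and 67.2% of their PB counts at such sites.

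Of the 182 sites, 155 were listed to protein-coding genes, 23 to long non-coding RNA genes and 3 to matched microRNA genes, and 1 gene name was unmatched. Non-coding genes were also frequent upstream (9.31% long non-coding, against 12.6% downstream), and rare among intronic sites (1.33%). The microRNA genes are given with their mature sequences because a microRNA acts through its seed, and no seed was shared among them. The sequences are RefSeq's, from the table of build GRCm38.p6, with the seed (bases 2 to 8) in capitals, and they lie kilobases from the insertions.
Mir5103 (mmu-miR-5103): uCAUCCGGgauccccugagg
Mir2136 (mmu-miR-2136): cUGGGUGUugacugagaugug
Mir217 (mmu-miR-217-5p): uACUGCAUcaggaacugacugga
Mir217 (mmu-miR-217-3p): cAUCAGUUccuaaugcauugccu
The site of Mir5103 was 43.198 kb away and held 12.9% of IR, 3.74% of JX and 7.79% of PB counts of a tamoxifen tumour. The site of Mir2136 was 83.779 kb away with 3.16% of IR counts, without tamoxifen. The site of Mir217 was 7.011 kb away with 0.384%, in the tamoxifen tumour that stood apart.

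Orientation was not used to choose the sites. The element lay in the same orientation as the gene at 108 of 182 sites (59.3%), against 99 of 204 upstream (48.5%) and 347 of 677 intronic sites (51.3%). Of all 155501 downstream positions listed on the kept chromosomes, called or not, 49.8% had the same orientation. The percent was 60.3% with tamoxifen and 57.1% without. By distance it was 4 of 6 sites under 1 kb, 54.2% from 1 to 10 kb and 59.4% from 10 to 50 kb. It was 66.0% from 50 to 100 kb and 7 of 14 sites beyond 100 kb. Without the tumour that stood apart it was 57.1% (88 of 154).

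Per tumour the same-orientation percent was 59.0% ± 40.6 (SD, n = 66), above an even split in 37 tumours, below in 22 and equal in 7. This departure of 8.98 percentage points did not pass (two-sided sign-flip permutation p = 0.0774, adjusted p = 0.464). Against upstream sites of the same tumour the difference was 5.86 percentage points, higher in 22 and lower in 16 of 46 tumours (permutation p = 0.457, adjusted p = 0.722). Between arms it was 2.65 percentage points (permutation p = 0.801, adjusted p = 0.820). Most tumours had 1 or a pair of downstream sites, so a tumour's percent was often 0 or 100.

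**Figure D4:**
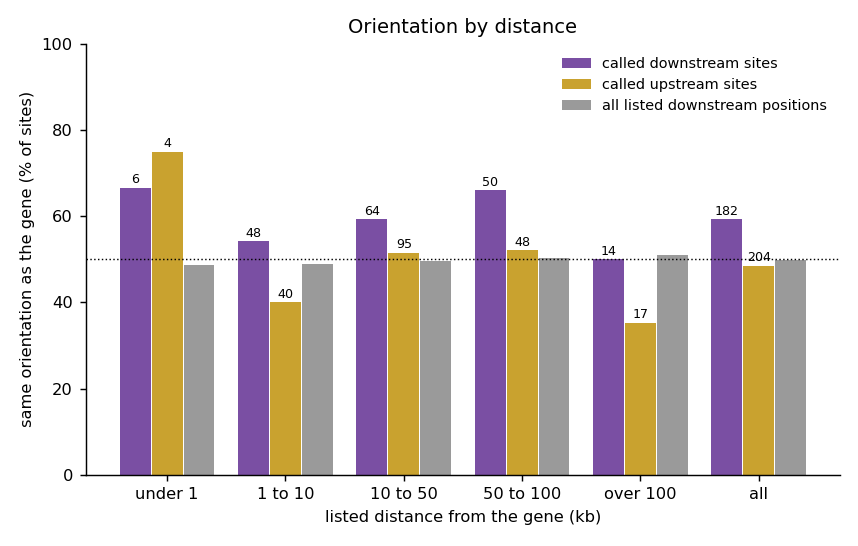
Percent of sites in the same orientation as their listed gene (vertical, from 0) by listed distance in kb (horizontal), with bars for called downstream sites, called upstream sites and all listed downstream positions, and the number of called sites above their bars. The dotted line marks 50%, and the bar for all 182 downstream sites stands at 59.3%.

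Genes rarely recurred. Of the 175 genes, 165 had called IR sites in 1 tumour on any side of or inside the gene, 10 in 2 tumours and 0 in 3 or more. Khdrbs2, an RNA-binding STAR protein of neurons, was the only gene with downstream sites in 2 tumours. One lay at 18.648 kb in the opposite orientation and held 9.45% with tamoxifen, and the other lay at 57.086 kb in the same orientation and held 2.91% without. The other 9 genes had a site inside or upstream of the gene in the second tumour. Myo10, an unconventional myosin of filopodia, had 8.54% at 24.476 kb downstream and 23.2% in intron 32 of another tumour, both with tamoxifen and in the same orientation as the gene. Vstm2a had 7.78% in intron 4 of another tamoxifen tumour, in the opposite orientation. Gm12824 (now Trabd2b) had 0.353% downstream and 17.4% in intron 1 of another tumour, both with tamoxifen. Trp63 had 19.4% in intron 1 of 1 tumour without tamoxifen. The tumour with the downstream site of Trp63 also had called sites in exon 12 (1.39%), in intron 6 (0.369% and 0.124%) and in intron 3 (0.0992%).

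Others of these genes had downstream shares of their own: Ltbp1 (3.33%), Scn2a1 (0.326%), Katnal1 (0.467%) and 2810474O19Rik, now Resf1 (5.09%).

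No gene could be tested for a different frequency between arms at these sites. Of all genes, 40 had called IR sites in at least 3 tumours and were tested with two-sided Fisher's exact tests, and 0 passed an adjusted p of 0.05 (0% of those tested), with 0 at an unadjusted p under 0.05. None of the 175 genes was among the 40 (0 of 175).

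Of all 17508 genes listed on the kept chromosomes, 175 (0.9995%) had a downstream site. Among potassium channel genes it was 3 of 81 (3.70%), at 3 sites in 2 tamoxifen tumours. The lists below with 1 gene stood at 2.33% to 3.23%, also above the percent of all genes, and the others at 0. Differences between lists were not tested. Kcnn3, a calcium-activated channel, had 1.48% at 1.9 kb (opposite), and Kcnj8, an ATP-sensitive channel, had 0.844% at 8.183 kb (same). Both lay in the same tumour. Kcnk1, a background leak channel, had 1.46% at 83.687 kb (opposite) in another. All 3 had JX counts (1.0016%, 0.139% and 0.0591% of JX), and the first 2 had PB counts (3.12% and 2.96% of PB). Genes near the sites included 7 olfactory or vomeronasal receptors (4.0% of the 175 genes), against 5.32% of all listed genes.

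Further gene lists gave single genes or none. The granule neuron lineage had 1 of 36 (Sox9). Synaptic adhesion and long neuronal genes had 1 of 43, Lrrtm4, a postsynaptic adhesion protein, with 1.18% at 36.142 kb without tamoxifen. Axon guidance had 1 of 31, the ephrin receptor Epha7, with 0.604% at 51.988 kb with tamoxifen. The Wnt and Notch list had 1 of 39, Axin2, a brake on Wnt signalling, at 61.206 kb in the tumour that stood apart. It held 199 IR counts (0.0672%) and no JX or PB count of that tumour. Wnt10a, a Wnt ligand not on the list, had 0.0598% in another tamoxifen tumour. The lists of the SHH pathway (22 genes), chromatin regulators (34) and cell cycle and DNA damage genes (24) had 0. These lists do not hold every related gene. L3mbtl4 (28.2%), Hira (4.69%) and Rprm (14.0%), outside them, did have downstream sites.

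Most sites belonged mainly to 1 tumour. The tumour in which it was called held a median of 99.3% of all IR counts at the position, and over 95% at 178 of 182 sites. The choice favours high values here, because the same IR counts called each site and credited it to the tumour with the highest share. The lowest value was 29.4%, at Ulbp1, a ligand of an immune receptor, in the tumour that stood apart. Even so 165 sites were also listed in other tumours, with a median of 5 tumours listing a site and at most 47. Both IR ends gave counts at 150 sites. At 75 sites over 90% of counts came from the left end, at 78 over 90% came from the right, and 29 lay between. In 3 genes (Tia1, Gm17830 and 1700080N15Rik) 2 called sites of 1 tumour lay 117 to 119 bp apart and were read from opposite ends, which leaves 179 sites when each pair is counted once. Among all called sites on the kept chromosomes there were 27 such pairs. The pair of 1700080N15Rik, a long non-coding RNA gene, held 5.42% and 13.3% of 1 tamoxifen tumour.

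Another called site of the same tumour lay within 1 Mb, but over 200 bp away, of 32 of 182 downstream sites (17.6%), against 17.2% of upstream and 15.1% of intronic sites. A site of another tumour lay within 1 Mb of 68.1% of downstream, 69.1% of upstream and 73.6% of intronic sites. Among downstream sites themselves, 7 such pairs lay in 1 tumour and 15 in different tumours. Cldn5 (4.63%) and Hira (4.69%), a histone chaperone gene, were the sites of 2 tumours 212.0 kb apart on chromosome 16. By chromosome the sites numbered from 3 of 53 called sites on chromosome 19 to 23 of 125 on chromosome 1, with 2 on unplaced sequence.

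A JX count within 100 bp was found at 150 of 182 downstream sites (82.4%), 80.4% of upstream and 75.04% of intronic sites. The tumour that stood apart held 28 downstream, 33 upstream and 147 intronic sites. Only 3.57%, 3.03% and 3.40% of them had a JX count. It therefore lowered the pooled percents, and the intronic one most, so these do not compare the classes. The 32 downstream sites without one lay in 3 tamoxifen tumours. The tumour that stood apart held 27 of them (of its 28 sites), and the others held 3 and 2. Per tumour, 97.7% ± 12.97 of downstream and 95.3% ± 15.1 of intronic sites had a JX count (SD, n = 64 tumours with both). The difference of 2.38 percentage points passed (two-sided sign-flip permutation p = 0.00107, adjusted p = 0.0128). It was higher downstream in 11 tumours, lower in 0 and equal in 53. These tumours had a median of 2 downstream and 4 intronic sites. A percent cannot pass 100%, and fewer sites reach it more easily, so small positive differences can outnumber negative ones. The sign-flip test treats both signs alike and does not allow for this. Its p-value therefore cannot decide by itself whether JX support differed. Without the left JX libraries of lane 4 the difference was also 2.38 (adjusted p = 0.0128 by permutation), without the tumour that stood apart 2.42 (permutation adjusted p = 0.0222) and without all of lane 4 1.64 (permutation adjusted p = 0.187). With at least 10 JX counts required it was 2.30 (permutation adjusted p = 0.608). Between arms the percent of downstream sites with a JX count was 96.4% ± 15.9 (SD, n = 42) with tamoxifen and 100% in each of 24 tumours without (permutation p = 0.466, adjusted p = 0.722). That difference was -3.56 percentage points, and without the tumour that stood apart -1.29 (permutation adjusted p = 0.770).

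A PB count within 100 bp was found at 109 of 182 downstream sites (59.9%), 60.3% of upstream and 60.7% of intronic sites. In the tumour that stood apart the percents were 3.57%, 6.06% and 7.48%, which lowered the pooled intronic percent most. The percent was 78.2% (61 of 78) for downstream sites with at least 1% of IR counts and 46.2% (48 of 104) for those below. Without the tumour that stood apart it was 61 of 77 and 47 of 77 (61.0%). Per tumour it was 72.0% ± 36.2 downstream and 74.4% ± 29.1 intronic (SD, n = 64; permutation p = 0.631, adjusted p = 0.757). With tamoxifen it was 73.7% ± 37.5 (SD, n = 42) and without 67.0% ± 36.2 (SD, n = 24), a difference of 6.72 percentage points that did not pass (permutation p = 0.481, adjusted p = 0.722). Within sites, the logs of the IR and JX shares had r = 0.745 over the 150 sites with JX counts, and those of IR and PB r = 0.457 over the 109 with PB counts. Both are descriptions over sites, which share tumours and libraries.

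The left JX ends that went against their labels enter the JX counts of all 16 tumours of lane 4. At 12 of the 25 downstream sites of lane 4 another tumour held a higher share of its JX counts than the labelled one. Cd109, a GPI-anchored cell surface protein, held 9.35% of IR and 12.5% of PB counts of a tamoxifen tumour. Its own JX libraries gave 0.131% there, and those of another lane 4 tumour gave 5.37%. Ppp4r2, a regulatory subunit of protein phosphatase 4, held 7.69% of IR counts without tamoxifen, with 1.01% in its own JX libraries and 16.2% in those of another tumour. Hira and Cldn1, a claudin, held 4.69% and 6.81% of IR counts of 1 tumour. Their own JX shares were 0.205% and 0.317%, against 13.002% and 10.4% in the JX libraries of the L3mbtl4 tumour. In the other lanes the like was seen at 3 sites of lane 2 and 1 of lane 7, each below 0.1% of the other tumour's JX counts.

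**Figure D5:**
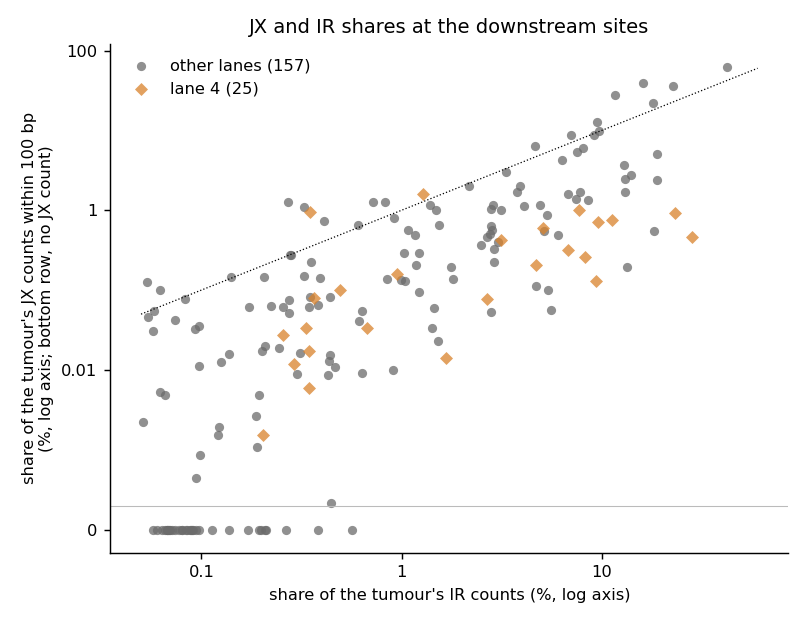
Share of the tumour's JX counts within 100 bp (vertical, log axis, percent; the bottom row holds sites with no JX count) against its share of IR counts (horizontal, log axis, percent) at 182 downstream sites, with the 25 sites of lane 4 as diamonds and a dotted line of equal shares. Sites of lane 4 with over 2% of IR counts all lie below the line, as do most such sites of the other lanes.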

How the data were processed

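Tumour DNA was sheared, given splinkerette adaptors, digested with BamHI and amplified, per the labels' protocols. The authors deposited raw counts for each position in each library (3961094 lines, 832 libraries, 9 lanes). Positions are in mm9 (submitters' processing notes). The aligner, counting rule and annotation behind them were not given in the sources used here. Arm, animal, library end and lane (used as a label, of unit other) come from the sheet deposited by the authors, with 868 lines.

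Counts were summed over the ends and lanes of a tumour (7 tumours were in 2 lanes). IDs spelled with and without a leading zero were joined. A site called in several tumours was credited to the one with the highest share. JX or PB counts were sought within 100 bp. Tests were two-sided permutation tests with 100000 resamples over tumours and Fisher's exact tests per gene, adjusted by Benjamini-Hochberg at 0.05, and were tested on simulated data. Python 3.11.15, pandas 2.3.3, numpy 2.4.6 and scipy 1.17.1 were used. P-values measure the spread between tumours.

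The sites, gene lists and tests were chosen with earlier results of these data known. Genes named were those in at least 2 tumours, at the 15 highest shares, the 5 nearest and 5 farthest, and up to 5 per list. Others (Cldn5, Aimp1, Pthlh, Cd109, Ulbp1, Ppp4r2, Hira, Cldn1, Gm17830, Wnt10a and the microRNA genes) were named after their values were seen. Of the genes that this rule names, 1 is not reported here. Of the 175 symbols, 157 were current in the given RefSeq table (assembly GRCm38.p6, for names only), 17 matched a synonym and 1 did not match. No mm9 genome was used, so site sequences are not given. Alternatives are listed in the closing section.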

Additional observations from a re-analysis of the deposited data

How the results depend on the processing

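The 12 permutation tests and the Fisher count were recomputed under alternatives of the call, the merging, the crediting, the joining of IDs and the JX and PB windows. Some were chosen after seeing the data: sites within 200 bp counted once, and leaving out sites of mixed orientation, unplaced sequence, lane 4 or its left JX libraries. Of the recomputed values 185 kept their direction and their side of the threshold, 6 changed sign, 5 no longer passed and 1 newly passed. The JX difference between downstream and intronic sites (2.38 percentage points) no longer passed with sites called from 0.1% of the top site (1.37) or from 5% (0.496), with IDs kept as spelled (0.809), with at least 10 JX counts required (2.30) and without lane 4 (1.64). The log10 distance difference to upstream sites passed with sites called from 0.1% (-0.120). The tamoxifen minus no tamoxifen difference in downstream percent, -0.750, changed sign with no crediting (0.365), with arms permuted within lanes (1.63) and without lane 4 (0.575). That in JX support changed sign with sites called from 0.1% (2.13), that in PB support within 1000 bp (-2.51), and the PB difference between downstream and intronic sites with at least 10 counts (1.75). None of these 6 passed under either setting, and the cause was not tested. The number of downstream sites was 1755 when called from 0.1% and 84 from 5%, and 150 had counts in both IR ends. Comparisons within tumours were paired by tumour. Between the arms no paired analysis was possible because each animal gave 1 tumour and belonged to 1 arm. Depth limits the smallest shares most: at the lowest IR depth, 295999 counts, a called site rested on as few as 188.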

Other observations

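The 8 tumours of animals with no usable arm in the sheet had 519 called IR sites, 390 of them on the kept chromosomes and 59 downstream (15.1%), in 4 tumours. One of these tumours held 51 of the 59. Their median distance was 31.0 kb, 33 had the same orientation as the gene, and the highest share was 8.11% at Csf2rb, the common beta chain of several cytokine receptors. They shared 4 genes with the 175 of the 2 arms.

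Of sites just inside the call threshold, Rps24 stood at 1.003% of its tumour's top site with 1857 counts and Parvg at 1.02% with 780 counts. Just outside it, 9630028H03Rik stood at 0.998% with 187 counts and Nr0b2 at 0.993% with 186 counts.

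After the values were seen, the log10 ratio of JX share to IR share was compared per tumour over sites with JX counts. The ratio divides by the IR share, which was used to call the sites. The median IR share of downstream sites was 0.345% with tamoxifen and 1.20% without. The 32 downstream sites left out for lack of a JX count all lay in tamoxifen tumours. The comparison therefore cannot separate a difference in JX from the choice of sites, and no conclusion is drawn from it. At downstream sites the ratio was -0.635 ± 0.564 in the tamoxifen arm (SD, n = 42) and -1.08 ± 0.535 (SD, n = 24) without, a difference of 0.446 (permutation p = 0.00241, adjusted p = 0.0145 over 6 comparisons). Without the left JX libraries of lane 4 the difference was 0.298 (permutation p = 0.0282, adjusted p = 0.0845) and within lanes 0.373 (permutation p = 0.0245, adjusted p = 0.147). At upstream sites it was 0.281, also higher with tamoxifen (permutation p = 0.0371, adjusted p = 0.111), or 0.130 without the left JX libraries of lane 4. At intronic sites it was 0.144 (permutation p = 0.182, adjusted p = 0.271), or 0.0171 without the left JX libraries of lane 4. The differences between downstream, upstream and intronic sites in this comparison were not tested.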
